A study of Homo sapiens with 4 samples.

Results

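The acetylation and TCF7L2 peaks around 9 genes that encode nuclear receptor coactivators and corepressors were examined: NCOA1, NCOA2, NCOA3, NCOA4, NCOR1, EP300, CREBBP, NRIP1 and MED1, of 20136 protein-coding genes in the annotation. The genes were chosen by their role as coregulators, though with earlier results of these data known. Every peak that overlapped the hg19 span of a gene, extended by 50 kb on each side, was taken. This gave 124 of 60752 H3K27Ac peaks after DHT, 112 of 57623 H3K27Ac peaks after vehicle and 25 of 20955 TCF7L2 peaks.

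The study mapped active chromatin in LNCaP, an established line of prostate cancer cells that respond to androgen. H3K27Ac was profiled at passage 20 in RPMI with charcoal-stripped serum, from which steroid hormones have been removed, either after 10 nM dihydrotestosterone (DHT), the potent ligand of the androgen receptor, for 4 h or after ethanol vehicle. TCF7L2, the transcription factor through which Wnt signals reach their target genes, was profiled at passage 15 in cells with serum that was not stripped. Each condition was 1 library of this 1 cell line, so variation among cultures is unknown, no test between conditions was possible, and every interval given here covers counting error only. The cell line was checked against its markers: the promoters of 8 of 8 luminal prostate genes had an H3K27Ac peak with DHT and 7 of 8 with vehicle, 0 of 4 basal and 0 of 4 leukocyte genes had one in either list, and 1 of 4 stromal genes had one in both.

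Nuclear receptors such as the androgen receptor switch genes on by recruiting coactivators. The p160 proteins NCOA1, NCOA2 and NCOA3 bind the ligand-occupied receptor and bring in the acetyltransferases EP300 and CREBBP, which place acetyl groups on histones and are the main writers of H3K27Ac itself, and MED1 links the receptor to the Mediator complex and RNA polymerase II. Corepressors work the other way: NCOR1 carries histone deacetylase activity to receptors, and NRIP1 competes for the surface that coactivators use.

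The deposited value of each peak is its height, the pileup of sequenced tags at its tallest point. Positions below are distances in kb from the annotated gene start to the middle of the peak, negative upstream. A promoter peak overlapped the stretch between 1000 bp upstream and 100 bp downstream of an annotated protein-coding start, and all other peaks were called distal. Of the 124 DHT peaks, 12 lay over a promoter of the gene itself, 9 over the promoter of another gene and 103 were distal. The vehicle list had 11, 7 and 94 peaks in these classes. The peaks had a median of 26.5 tags (range 10 to 125) with DHT and of 26 tags (range 9 to 126) with vehicle, where the whole lists had medians of 23 tags with DHT and 22 with vehicle.

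The 9 genes differed widely in how much acetylated chromatin surrounded them. NCOR1, on the minus strand of chr17:15932379-16121499, had the most with DHT and NCOA2 the most with vehicle. NCOR1 had 27 DHT peaks that covered 79.1 kb and 20 vehicle peaks that covered 61.3 kb. NCOA2 (chr8:71022017-71316043, minus strand) had 23 DHT peaks over 56.7 kb and 27 vehicle peaks over 62.9 kb, and NCOA1 (chr2:24714123-24993571, plus strand) had 23 DHT and 21 vehicle peaks. These are also the longest genes, with spans of 189, 294 and 279 kb. NCOA3 (chr20:46130631-46285621, plus strand) had 12 DHT and 13 vehicle peaks, whereas CREBBP (chr16:3775055-3930714, minus strand), whose span of 156 kb is nearly the same as the 155 kb of NCOA3, had 8 in each list, the tallest of 30 tags with DHT and 28 with vehicle. EP300 (chr22:41488596-41576081, plus strand) had 10 DHT and 9 vehicle peaks. NRIP1 (chr21:16333556-16438257, minus strand) had 6 in each list. NCOA4 (chr10:51565199-51590734, plus strand) had 11 DHT and 6 vehicle peaks, and MED1 (chr17:37560538-37607525, minus strand) had 4 DHT and 2 vehicle peaks.

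**Figure D1:**
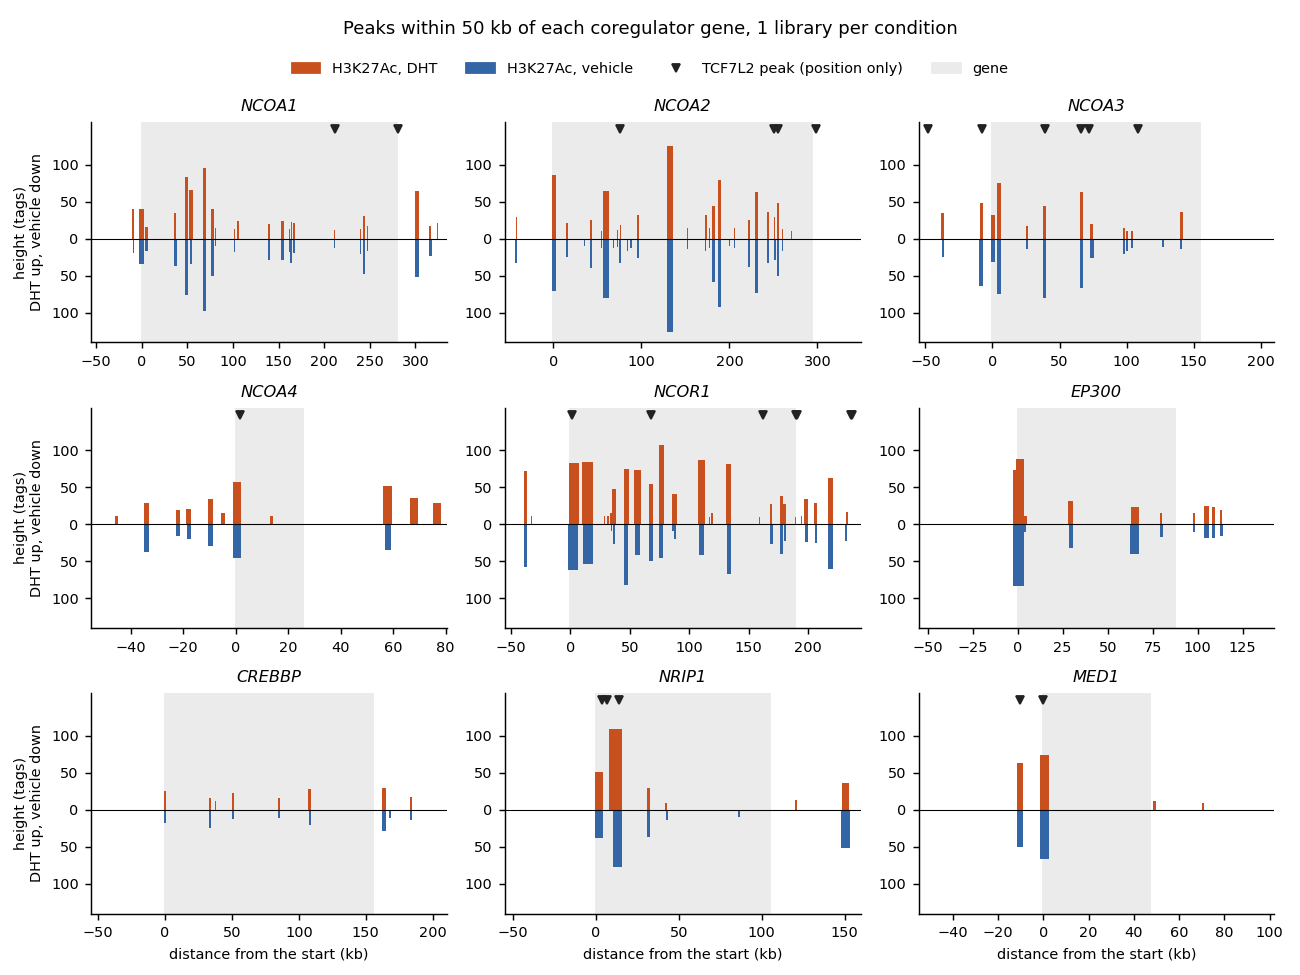
H3K27Ac peak height in tags (DHT upward, vehicle downward) against the distance in kb from the gene start, for each of the 9 genes with its 50 kb surroundings. Bars narrower than 1.2 kb are drawn at that width, grey marks the gene and triangles mark TCF7L2 peaks by position only. NCOR1, NCOA1 and NCOA2 carried peaks along their whole length, CREBBP had 8 low peaks in each list, and MED1 had little beyond its own promoter and that of CDK12.

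All 9 genes had a promoter peak in both H3K27Ac lists, which 55.6% of protein-coding genes had with DHT and 54.3% with vehicle. The order of the promoter heights was the same in both conditions, except that NCOR1 stood above MED1 with DHT and below it with vehicle. EP300 was the tallest with 88 tags with DHT (exact Poisson 95% interval 70.6 to 108) and 83 with vehicle (66.1 to 103). It was taller than the tallest promoter peak of 86.7% of genes with one in the DHT list, and of 88.2% in the vehicle list. Its promoter was split into 2 DHT peaks, of 88 and 73 tags, over 1 vehicle peak of 83 tags. CREBBP, the paralog of EP300 with the same enzymatic activity, was the lowest, with 26 tags with DHT (17 to 38.1) and 17 with vehicle (9.90 to 27.2), and the intervals of the 2 acetyltransferase genes did not overlap in either condition. The promoters of the 2 genes thus stood at the opposite ends of the list.

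Between them, NCOA2 had 87 tags with DHT, 71 with vehicle, and NCOR1 83 with DHT and 61 with vehicle. MED1 had 74 tags with DHT and 66 with vehicle. The promoter of NCOA4, a coactivator first described for the androgen receptor and also the receptor that delivers ferritin to the lysosome, had 58 tags with DHT and 46 with vehicle. NRIP1 had 51 with DHT and 38 with vehicle, NCOA1 41 with DHT and 34 with vehicle, and NCOA3 32 with DHT and 31 with vehicle. Neighbours in this order did not differ beyond their counting intervals. With DHT the median over the 9 genes was 58 tags and over all genes with a promoter peak 46 tags, and with vehicle these medians were 46 and 40 tags. NCOA2 and NCOR1 each had another, internal promoter peak far downstream, of 48 tags with DHT and 50 with vehicle at 255 kb of NCOA2, and of 39 with DHT and 40 with vehicle at 177 kb of NCOR1.

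**Figure D2:**
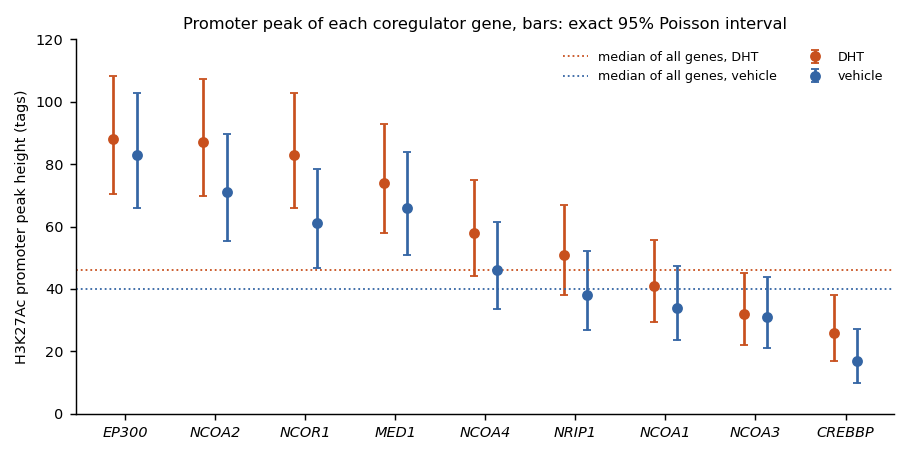
Promoter peak height in tags (H3K27Ac, the tallest peak over each promoter) of the 9 genes, with DHT and with vehicle, 1 library each. Bars are exact 95% Poisson intervals and dotted lines are the medians of all genes with a promoter peak, 46 tags with DHT and 40 with vehicle; EP300 (88 tags with DHT, 83 with vehicle) and CREBBP (26 with DHT, 17 with vehicle) stand at the ends.

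All 9 promoter peaks were higher with DHT as deposited, as were 83.6% of the 10797 genes with a promoter peak in both lists. Since the number of reads behind each list is unknown, each DHT over vehicle ratio was divided by the median ratio of all 50368 peaks shared by both lists, 1.07, and a peak was called higher or lower when the scaled ratio reached 1.5-fold. On this scale 0 of the 9 promoters were called higher and 0 were called lower, against 3.48% and 0.815% of all genes. The scaled log2 ratio had a median of 0.20 over the 9 genes and of 0.09 over all genes. CREBBP had the largest value, 0.52, followed by NCOR1 at 0.35, NRIP1 at 0.33, NCOA4 at 0.24, NCOA2 at 0.20, NCOA1 at 0.17 and MED1 at 0.07. EP300 at -0.01 and NCOA3 at -0.05 lay near 0. The 95% interval of the scaled ratio contained 1 for each of the 9 genes (0.748 to 2.81 for CREBBP, 0.727 to 1.36 for EP300), so at this depth no change of a coregulator promoter was detectable.

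Of the 124 DHT peaks, 104 overlapped a vehicle peak by at least 1 bp. Of these, 11 were higher with DHT, 10 were lower and 83 lay between, which is about the share over all shared peaks, 11.2% higher and 10.2% lower. All 21 called peaks were distal. The median scaled log2 ratio was -0.02 over the 104 peaks, 0.12 over the 12 shared own-promoter peaks and -0.10 over the 85 distal ones. The log2 ratios ran between -0.93 and 1.27 for distal peaks and between -0.28 and 0.52 for own-promoter peaks. For 9 of the 104 peaks the interval of the ratio lay above 1 and for 4 it lay below 1, against 7.55% and 5.25% of all shared peaks.

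The calls were counted by role, beside 11.2% higher and 10.2% lower over all shared peaks. Around the 2 corepressor genes 6 of 24 shared peaks were higher with DHT and 0 were lower (median log2 ratio 0.25), around the p160 coactivators 4 of 55 were higher and 8 lower (median -0.18), around the acetyltransferases 1 of 17 was higher and 2 were lower (median 0.18), and around NCOA4 and MED1 0 of 8 were called (median 0.16). The 2 corepressor genes differed: NCOR1 had 6 of 19 shared peaks higher and a median of 0.25, NRIP1 0 of 5 and a median of -0.36. These counts describe 9 genes in 1 pair of libraries. Peaks of 1 gene share its chromatin, so the groups were not compared by a test.

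**Figure D3:**
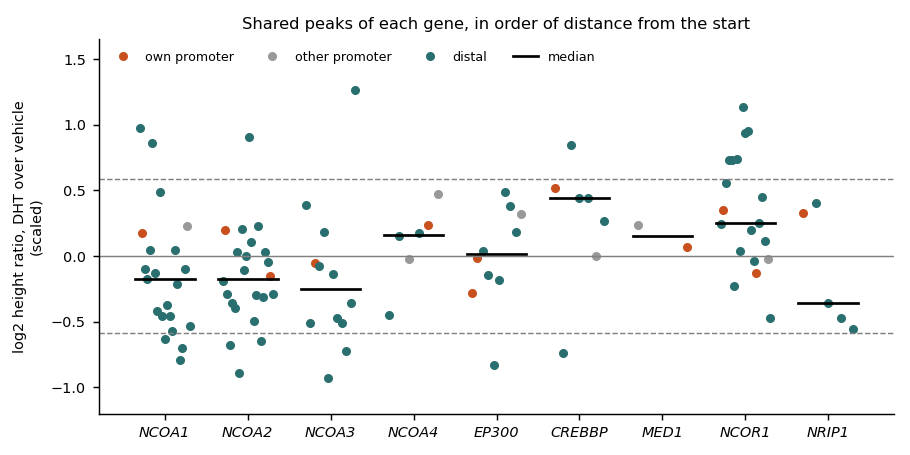
Scaled log2 ratio of peak height, DHT over vehicle, for each of the 104 shared peaks, by gene and from left to right by distance from the start. Colors mark promoter and distal peaks, short lines are medians and dashed lines mark 1.5-fold; 6 NCOR1 peaks lie above the upper line and none below the lower one, and all promoter peaks lie between the lines.

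The 6 corepressor peaks that were higher with DHT all belonged to NCOR1, all within the gene. The strongest lay at 76.5 kb (chr17:16042980-16047089), over exon and intron sequence, with 108 tags with DHT and 46 with vehicle, a scaled ratio of 2.20 (95% interval 1.54 to 3.18). It ranked 1923rd by height in the DHT list and 12541st in the vehicle list. Further into the gene, a peak at 110 kb had 87 tags with DHT and 42 with vehicle (ratio 1.94, 1.33 to 2.87), and one at 87.4 kb, over 2 vehicle peaks, had 41 with DHT and 20 with the taller vehicle peak (1.92, 1.1 to 3.46). Nearer the start, a peak at 56.7 kb had 73 tags with DHT and 41 with vehicle (1.67, 1.12 to 2.51), one at 36.7 kb had 48 with DHT and 27 with vehicle (1.66, 1.02 to 2.77) and one at 34.3 kb had 16 with DHT and 9 with vehicle (1.66, 0.693 to 4.27). The peak at 14.6 kb, with 85 tags with DHT and 54 with vehicle, fell just short of the threshold at 1.47. These peaks alternated with others that hardly differed: the peak at 47.3 kb had 75 tags with DHT, against 82 with vehicle, and the peak at 67.9 kb had 55 with DHT and 50 with vehicle.

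In all, 14 of the 19 shared NCOR1 peaks had a scaled ratio above 1 and 5 below. Of the 27 DHT peaks of NCOR1, 8 were found with DHT and not with vehicle, of 10 to 15 tags, against 17.1% of all DHT peaks. Of its 20 vehicle peaks, 0 were found with vehicle alone, against 11.8% of all vehicle peaks. The share of calls depends on the height with vehicle, which is also the denominator of the ratio. With fewer than 20 tags with vehicle, 5 of 32 peaks around the 9 genes were higher (18.7% of all shared peaks of that height) and 1 was lower (4.46%). From 20 to below 40 tags, 3 of 37 were higher (9.70%) and 6 lower (15.1%). From 40 to below 80 tags, 3 of 27 were higher (5.06%), all at NCOR1, and 2 were lower (12.7%), and from 80 tags 0 of 8 were higher (0.629%) and 1 was lower (10.2%).

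NRIP1, the other corepressor gene, showed no called peak. Its tallest peak, in the intron at 11.8 kb (chr21:16422690-16430309), had 109 tags with DHT and 77 with vehicle (ratio 1.33, 0.981 to 1.8), and it was 7.62 kb wide with DHT and 5.46 kb wide with vehicle. The other distal peaks of the gene leaned the other way: at 31.7 kb there were 30 tags with DHT and 36 with vehicle, at 42.4 kb 10 with DHT and 13 with vehicle, and at 151 kb, beyond the far end of the gene, 37 with DHT and 51 with vehicle. None of these intervals excluded a scaled ratio of 1.

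Among the p160 genes, NCOA3 held both the largest and the smallest ratio of the whole set. At 141 kb a peak over exon and intron sequence had 36 tags with DHT and 14 with vehicle (ratio 2.41, 1.27 to 4.83). At 38.7 kb, in an intron (chr20:46168200-46170539), a peak had 45 tags with DHT and 80 with vehicle (0.527, 0.357 to 0.768), and it ranked 15082nd in the DHT list and 4064th in the vehicle list. That peak was the tallest of the gene with vehicle. The tallest with DHT, at 4.82 kb, hardly differed, with 75 tags with DHT and 74 with vehicle. Of its 12 shared peaks 9 had a ratio below 1.

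NCOA2 had the tallest H3K27Ac peak of any of the 9 genes, in an intron at 132 kb, with 125 tags with DHT and 126 with vehicle. Of its 22 shared peaks 14 lay below a ratio of 1, and 3 were called lower, against 10.2% of all shared peaks. At 76.1 kb there were 19 tags with DHT and 33 with vehicle (0.539, 0.290 to 0.976). At 43.0 kb there were 26 with DHT and 39 with vehicle (0.624, 0.365 to 1.05). At 222 kb there were 26 with DHT and 38 with vehicle (0.641, 0.373 to 1.08), and the intervals at 43.0 and 222 kb contain 1. A single peak was called higher (11.2% of all shared peaks), at 173 kb, with 32 tags with DHT and 16 with vehicle (1.87, 0.998 to 3.65). Of its 23 DHT peaks 1 was found with DHT alone, of 11 tags, against 17.1% of all DHT peaks. Of its 27 vehicle peaks 5 were found with vehicle alone, of 9 to 16 tags, against 11.8% of all vehicle peaks.

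NCOA1 had called peaks in both directions: of 21 shared peaks 2 were higher and 3 lower, against 11.2% and 10.2% of all shared peaks. Upstream of the gene at -9.03 kb there were 40 tags with DHT and 19 with vehicle (1.97, 1.12 to 3.6), and in the intron at 54.1 kb 66 with DHT and 34 with vehicle (1.82, 1.18 to 2.84). The peaks that were lower lay further into the gene. At 140 kb there were 20 tags with DHT and 29 with vehicle (0.646, 0.346 to 1.18). At 240 kb there were 13 with DHT and 21 with vehicle (0.580, 0.267 to 1.21), and both of these intervals contain 1. At 244 kb there were 31 with DHT and 47 with vehicle (0.617, 0.379 to 0.992). Its tallest peak, at 69.2 kb, had 96 tags with DHT and 98 with vehicle.

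**Figure D4:**
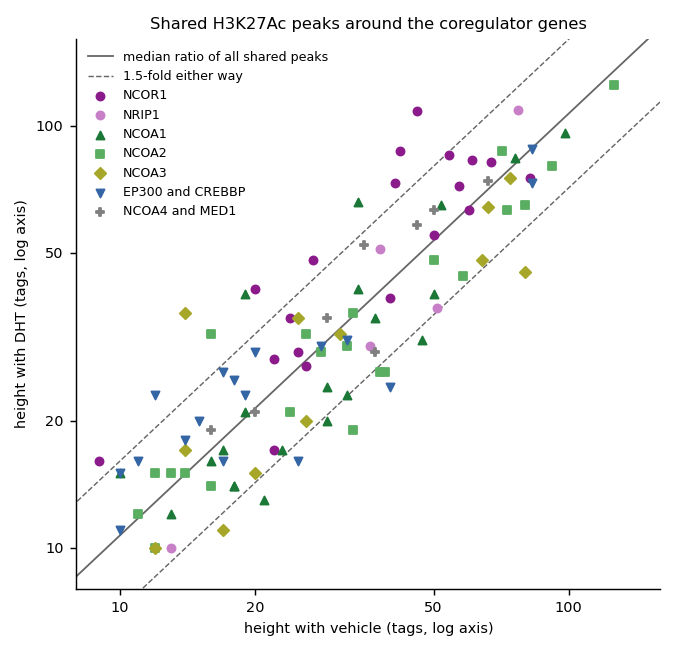
Height of each shared H3K27Ac peak with DHT against its height with vehicle, both in tags on log axes, by gene. The solid line is the median ratio of all shared peaks, 1.07, and the dashed lines are 1.5-fold either way of it; the NCOR1 peaks with 108, 87 and 73 tags with DHT lie above the upper line, and the NCOA3 peak with 45 tags with DHT and 80 with vehicle is the farthest below the lower one.

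The distal peaks of the acetyltransferase genes were few. EP300 had 1 called peak, at 65.1 kb, lower with 24 tags with DHT and 40 with vehicle (interval of the scaled ratio 0.324 to 0.955). CREBBP had 1 in each direction, both in introns: 23 tags with DHT and 12 with vehicle at 50.8 kb (1.79, 0.857 to 3.96) and 16 with DHT and 25 with vehicle at 33.7 kb (0.599, 0.299 to 1.17). The counts behind both CREBBP peaks are low and both intervals contain 1.

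Peaks found in 1 condition alone were low. With DHT they were 20 of 124 (16.1%, 95% Wilson interval 10.7 to 23.6), against 17.1% of all DHT peaks, with a median of 12 tags and a range of 10 to 36. With vehicle they were 8 of 112 (7.14%, 3.66 to 13.5), against 11.8% of all vehicle peaks, with a median of 11 tags and a range of 9 to 16. The tallest of them lay downstream of NCOA4, with 36 tags at 68.0 kb and 29 tags at 76.8 kb, both with DHT alone. These lie in sequence that has near copies elsewhere: when each peak was divided into pieces of 100 bp and aligned back to the genome, 0% and 3.33% of the pieces were placed at their own position, and for the peak over the TIMM23 promoter at 58.0 kb (52 tags with DHT, 35 with vehicle) 0% were. Reads from such sequence cannot be assigned to 1 locus with certainty, and these 3 DHT peaks of NCOA4 are uncertain. Without these peaks, a choice made after the data had been seen, 14.9% of the remaining 121 DHT peaks had no vehicle counterpart.

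Of the promoters of other genes in these surroundings, 0 of 7 shared peaks were called. The 7 include the uncertain TIMM23 peak, of which 0% of the pieces with DHT and 4.17% with vehicle were placed at their own position. Over all genes with a promoter peak in both lists, 3.48% were called higher and 0.815% lower. CDK12, which encodes a kinase of RNA polymerase II and lies upstream of MED1, had 63 tags with DHT and 50 with vehicle. PTRHD1 and CENPO share a promoter peak beyond NCOA1, with 65 tags with DHT and 52 with vehicle, TTC19 and ZSWIM7 share one beyond NCOR1, with 63 with DHT and 60 with vehicle, and PIGL shares the promoter peak of NCOR1 itself. MSMB, upstream of NCOA4 and encoding a protein that prostate epithelium secretes, had 21 tags with DHT and 20 with vehicle. TRAP1 beyond CREBBP had 30 with DHT and 28 with vehicle, and L3MBTL2 beyond EP300 had 20 with DHT and 15 with vehicle. Low peaks over further promoters of FBXL20 (12 tags) and TTC19 (11 tags) were found with DHT alone.

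The androgen receptor binds inverted repeats of the half-site AGAACA, that is AGAACA and TGTTCT separated by 3 bases. The middle 1001 bp of each DHT peak were searched on both strands for this element, allowing 2 mismatches in the 12 fixed bases. A match was found in 15 of the 124 peaks around the 9 genes and in 9.32% of all DHT peaks. By call, matches were in 2 of 11 higher peaks (14.9% of all higher peaks), 0 of 10 lower peaks (6.50%), 9 of 83 peaks in between (7.13%) and 4 of 20 peaks found with DHT alone (16.1%). Both higher peaks with a match were at NCOR1, but NCOR1 peaks that were not called held matches too. The most central match of the gene, 13 bp from the middle, was in the peak at 177 kb, with 39 tags with DHT and 40 with vehicle, and another was in the peak of 10 tags at 159 kb found with DHT alone. Outside the window, matches lay 824 bp from the middle of the higher peak at 110 kb, 1162 bp from that of the higher peak at 56.7 kb, which so had 2, and 1345 bp from that of the peak at 198 kb, with 35 tags with DHT and 24 with vehicle. Shown are the nearest match in each of the 3 NCOR1 peaks that differed most in tags between conditions and, for comparison, the one at 177 kb, on the plus strand of GRCh37, with the 15 matched bases in capitals and 20 bases on each side, and the coordinates are those of the match.
NCOR1 76.5 kb, 115 bp from the middle, chr17:16045142-16045156: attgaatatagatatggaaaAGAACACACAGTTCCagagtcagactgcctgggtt
NCOR1 56.7 kb, 301 bp from the middle, chr17:16064466-16064480: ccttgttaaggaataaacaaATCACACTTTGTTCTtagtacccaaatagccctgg
NCOR1 110 kb, 824 bp from the middle, chr17:16011951-16011965: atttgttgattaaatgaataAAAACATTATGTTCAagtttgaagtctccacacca
NCOR1 177 kb, 13 bp from the middle, chr17:15944270-15944284: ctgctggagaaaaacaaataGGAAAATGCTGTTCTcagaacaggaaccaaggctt

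Each of the 4 NCOR1 matches has the full 2 mismatches, and such a match is a description of the letters and not evidence that the receptor was bound there. Androgen receptor binding was not measured in the libraries used here.

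TCF7L2 peaks were unevenly distributed over the 9 genes. NCOR1 had 7, NCOA3 had 6, NCOA2 had 4, NRIP1 had 3, NCOA1 and MED1 had 2 each, NCOA4 had 1, and EP300 and CREBBP had none. Only 1 gene of the 9, MED1, had one over its own promoter, against 18.7% of all protein-coding genes. That peak (chr17:37607370-37607819) had 119 tags (exact Poisson interval 98.6 to 142). It was taller than the tallest TCF7L2 promoter peak of 97.8% of genes with one, and ranked 1438th by height among all TCF7L2 peaks. The neighbouring CDK12 promoter carried 66 tags, so that both promoters of this short stretch held TCF7L2 as well as H3K27Ac. The tallest peak around any of the genes, of 169 tags, lay beyond the far end of NCOA2, 299 kb from its start, where neither H3K27Ac list had a peak.

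In all, 14 of the 25 TCF7L2 peaks overlapped H3K27Ac (56.0%, Wilson interval 37.1 to 73.3), against 34.5% of all TCF7L2 peaks, and all 14 overlapped a peak in both the DHT and the vehicle list. Those inside acetylated chromatin had a median of 36 tags (range 18 to 119) and the 11 outside a median of 23 tags (range 20 to 169). At NCOR1, 5 of the 7 lay outside. The share inside varied with the surroundings taken: 42.9% of TCF7L2 peaks at 100 kb and 63.6% at 25 kb. The 34.5% is over the whole genome and not over windows around genes. The TCF7L2 cells grew in other serum than the H3K27Ac cells, so the heights of the TCF7L2 and H3K27Ac peaks are given side by side and are not on 1 scale.

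Of the 14 H3K27Ac positions that held a TCF7L2 peak, 7 had a scaled ratio above 1 and 7 below, with 0 called higher and 2 called lower. The ratios above 1 were at NRIP1 (1.33 and 1.26), NCOR1 (1.27 and 1.03), NCOA4 (1.18), CDK12 (1.18) and MED1 (1.05). Of the others, the TCF7L2 peaks of 50 and 70 tags lay in the H3K27Ac peaks with the lowest ratio at NCOA3 (45 tags of H3K27Ac with DHT, 80 with vehicle) and at NCOA2 (19 with DHT, 33 with vehicle). The NCOA3 peak upstream of the gene at -7.85 kb, of 40 tags, lay in one with 48 tags of H3K27Ac with DHT and 64 with vehicle. The NCOA1 peak of 93 tags at 212 kb lay in a low H3K27Ac peak, with 12 tags with DHT and 13 with vehicle, and the NCOA4 peak of 51 tags at 1.8 kb lay at the edge of the promoter peak.

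**Figure D5:**
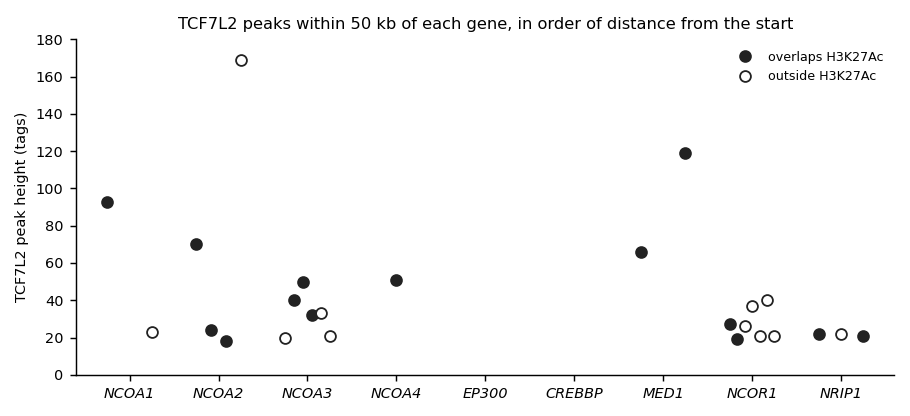
Height in tags of each of the 25 TCF7L2 peaks by gene, from left to right by distance from the start. Filled circles overlap H3K27Ac (14 peaks) and open circles do not (11 peaks); the peak of 169 tags beyond NCOA2 is open, and EP300 and CREBBP have none.

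TCF7L2 recognizes CTTTG followed by 2 bases that are each A or T, that is CTTTGAA or CTTTGAT, and likewise CTTTGTA or CTTTGTT. On either strand, 10 of the 25 peaks held this motif (40%, 23.4 to 59.3), against 44.5% of all TCF7L2 peaks. Within 50 bp of the middle of the peak, 9 of 25 held it (36.0%, 20.2 to 55.5), against 24.3% of all. The single form CTTTGAT was in 3 of 25 (12%), against 17% of all. The middle 121 bases of 6 TCF7L2 peaks are shown. The first 4 are the tallest at their genes with a motif. The fifth has the form CTTTGAT at NCOR1, and the last lies in the H3K27Ac peak with the lowest ratio, at NCOA3. All 6 are read on the plus strand of GRCh37. Capitals mark the motif, or its reverse complement where the motif is on the minus strand.
MED1 promoter, 119 tags, chr17:37607534-37607654: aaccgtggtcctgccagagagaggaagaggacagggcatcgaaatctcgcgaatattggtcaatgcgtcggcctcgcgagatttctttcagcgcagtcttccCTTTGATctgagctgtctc
NCOA1 212 kb, 93 tags, chr2:24925769-24925889: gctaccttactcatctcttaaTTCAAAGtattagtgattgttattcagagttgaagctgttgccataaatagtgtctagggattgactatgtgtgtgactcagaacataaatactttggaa
NCOA4 1.8 kb, 51 tags, chr10:51566939-51567059: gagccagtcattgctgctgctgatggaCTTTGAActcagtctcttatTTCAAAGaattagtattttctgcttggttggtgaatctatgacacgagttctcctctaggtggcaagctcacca
NCOA3 -7.85 kb, 40 tags, chr20:46122719-46122839: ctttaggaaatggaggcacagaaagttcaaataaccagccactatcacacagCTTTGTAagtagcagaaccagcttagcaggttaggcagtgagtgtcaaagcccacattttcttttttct
NCOR1 162 kb, 26 tags, chr17:15959504-15959624: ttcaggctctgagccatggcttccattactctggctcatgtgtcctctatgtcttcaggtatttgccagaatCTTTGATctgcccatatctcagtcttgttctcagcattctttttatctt
NCOA3 39.3 kb, 50 tags, chr20:46169894-46170014: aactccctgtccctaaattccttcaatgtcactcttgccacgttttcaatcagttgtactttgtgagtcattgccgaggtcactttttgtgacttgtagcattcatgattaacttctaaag

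The MED1 promoter holds CTTTGAT 44.5 bp from the middle of its peak, and the NCOA4 intron holds CTTTGAA and its reverse complement in the same stretch. The NCOA3 peak of 50 tags at 39.3 kb had no motif anywhere, nor did the tallest peak beyond NCOA2 or the CDK12 promoter peak, which says only that these letters are not in these windows.

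A list of 47 further coregulator genes was set beside the 9. Of these, 42 had a promoter peak in both H3K27Ac lists, with a median scaled log2 ratio of 0.10 (0.09 over all genes). Among the 42, 0 were called higher and 0 lower, against 3.48% and 0.815% of all genes, shares at which few calls among 42 would occur. The largest ratios were those of KMT2D, a histone methyltransferase of enhancers (54 tags with DHT, 34 with vehicle, log2 ratio 0.57), and of the Mediator genes MED23 (70 with DHT, 46 with vehicle) and MED12 (22 with DHT, 15 with vehicle). The smallest were those of KAT2A, an acetyltransferase (14 with DHT, 17 with vehicle), NCOA7 (63 with DHT, 74 with vehicle) and the corepressor TLE1 (67 with DHT, 74 with vehicle). NR0B1, NR0B2, PPARGC1A and TGFB1I1 had no promoter peak in either list, and PIAS1 had 11 tags with DHT alone.

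The genes most like a member were sought by promoter height in both H3K27Ac lists and the tallest TCF7L2 peak within 50 kb, by the sum of absolute log2 differences over these 3 values. EP300 and CREBBP, the highest and lowest promoters, have no TCF7L2 peak and could not be matched. For NCOA4, in the middle of the order, the nearest of 8251 genes were RPS24 (55 tags with DHT, 46 with vehicle, 51 of TCF7L2, sum 0.0766) and HOOK2 (54 with DHT, 46 with vehicle, 51 of TCF7L2, sum 0.103).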

How the data were processed

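The data were 3 lists of peaks of LNCaP cells, 1 library each. The authors mapped reads to hg19, by the study's methods with Bowtie 2 for H3K27Ac and ELAND for TCF7L2 (the submitters' processing notes name CASAVA 1.8.2, Bowtie2 and BWA), and called peaks in each library with Sole-search, H3K27Ac at the stricter false discovery rate. The deposited value of a peak is a signal, its height in whole tags; whether heights were adjusted for depth is not given in the sources used here, and the depth of each library is unknown. An input library was not analysed here.

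Peaks were joined to GENCODE release 44 mapped to GRCh37 (the build of hg19, and all peaks end within its chromosome lengths), and the tallest overlapping vehicle peak was paired with each DHT peak. Ratios were scaled by the median of all shared peaks and have exact intervals of a ratio of 2 counts. Motifs were searched in GRCh37. Pieces of 100 bp were placed with minimap2, at a mapping quality of at least 30. The 9 genes, the further coregulators and the markers were chosen with earlier results of these data known. The text names the 9 genes, genes whose promoter holds a peak near them, the 3 largest and 3 smallest ratios of the further coregulators, and the 2 most alike genes of at most 3 members. The code was tested on simulated data. Alternatives covered the surroundings, the number of peaks, overlap, promoter window and starts, scaling, fold and motif, and, chosen after the data had been seen, placement, leaving out NCOR1 and a minimum of 20 tags. Software was minimap2 2.31, samtools 1.23.1, bedtools 2.31.1 and Python 3.11.15, with scipy 1.17.1, numpy 2.4.6, matplotlib 3.10.9 and pyfaidx 0.9.0.4.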

Additional observations from a re-analysis of the deposited data

How the results depend on the processing

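Over 101 alternatives of 21 results, 77 stayed within the limits set and 24 moved. With the top 25000 H3K27Ac and top 15000 TCF7L2 peaks, the peaks around the 9 genes were 59 with DHT, 58 with vehicle and 15 for TCF7L2, 17.2% of the vehicle peaks had no DHT counterpart, and 5 shared peaks were higher with DHT and 2 lower. With surroundings of 100 kb there were 42 TCF7L2 peaks, and at 25 kb the NCOR1 median log2 ratio was 0.40. A promoter window of 2500 bp on each side gave 5 of the 9 genes a TCF7L2 promoter peak and called 1 further coregulator higher. At the lower fold threshold tried, 24 shared peaks were higher and 28 lower (20.4% and 23.2% of all shared peaks), 3 of the 9 promoters were higher, and 6 further coregulators were higher and 2 lower. Without scaling, the median log2 ratio of the shared peaks was 0.077, against -0.02 with scaling, the median of the further coregulators was 0.19, and 1 of the 9 promoters and 2 further coregulators were called higher. The shares of all genes under the wider promoter window, the lower fold and no scaling were not computed, so these promoter counts have no background beside them. Without NCOR1, 5 shared peaks were higher and the median was -0.10. With at least 20 tags in both conditions, 6 were higher and 6 lower (7.56% and 7.94% of all). The motif form CTTTGAT was in 12% of TCF7L2 peaks. The causes of these moves were not tested. With 1 library per condition and heights of 9 to 126 tags, counting error alone spans most ratios given. No paired analysis was possible because each condition had 1 library.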

Other observations

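The 2 TCF7L2 peaks over promoters at MED1 and CDK12 share a word that the other 23 TCF7L2 peaks around the 9 genes lack. Of those without it, 22 lie away from promoters, and the peak of 27 tags at NCOR1 lies over a promoter, that of PIGL. The word, TCTCGCG, was picked after the sequences had been seen because the MED1 and CDK12 peaks both hold it, so their sharing it was fixed by the choice. Counted on both strands, it occurred 3 times in the MED1 promoter peak of 119 tags and 4 times in the CDK12 promoter peak of 66 tags. Over the whole TCF7L2 list it was in 6.12% of the 3628 peaks that overlapped a promoter and in 0.346% of the 17327 peaks away from promoters. Both peaks also overlapped H3K27Ac, with 74 tags with DHT and 66 with vehicle at MED1, and 63 with DHT and 50 with vehicle at CDK12.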
